A study of Caenorhabditis elegans with 3 samples.

Results

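The heme-responsive genes hrg-1, hrg-4, hrg-7, hrg-10 and hrg-11.2 of the nematode Caenorhabditis elegans were followed in young adult worms kept with multiwall carbon nanotubes, fibres made of nested tubes of carbon. The genes were chosen by name, with their values in these arrays already known, and they are 5 of the 17118 genes that the array's annotation ties to a probe set of 1 gene. Each is measured by 1 probe set, a group of short probes read together, and those of hrg-1 and hrg-11.2 may also match other transcripts. Because the choice used the values, the differences below are descriptions and no test is attached to them.

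The arrays held total RNA of hermaphrodites of the wild-type N2 strain, synchronized from eggs and fed Escherichia coli OP50. The 0 h worms had no nanotubes, and the other worms spent 4 h or 24 h in K-medium with nanotubes at 1 mg/L. K-medium is a solution of potassium and sodium chloride. Each time was hybridised to 1 Affymetrix array, so there were 3 arrays, no replicates, and a precision limited by the number of arrays. Worms without nanotubes at 4 h or 24 h were not analysed here, so exposure, time in the medium and age cannot be told apart in any comparison. The RNA came from whole worms, in which fewer cells of a type and less RNA per cell cannot be told apart.

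Heme, the iron-containing ring that serves as cofactor of cytochromes, catalases and globins, cannot be made by C. elegans and is taken from the bacteria the worm eats. Uptake takes place in the intestine, where HRG-4 brings heme across the gut-facing membrane and HRG-1 moves it out of lysosome-like compartments. Heme then leaves the intestine for the rest of the body, and secreted proteins made in the intestine carry heme or signal its supply to other tissues. Transcripts of hrg-1 and hrg-4 are known to be abundant when heme is scarce and low when it is plentiful.

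All 5 genes had lower deposited intensities at 4 h and at 24 h than at 0 h. When the arrays were scaled on spiked-in controls, hrg-1 at 24 h turned higher (log2 ratio 0.16), still below the median of all genes (0.61). The courses of the 5 genes differed. Transcripts of hrg-7, hrg-10 and hrg-11.2 were lower at 4 h than at 0 h and lower again at 24 h. The hrg-1 value was lowest at 4 h, and hrg-4, dim at the start, lay under the background floor at both exposed times. That floor, the highest intensity of a control for transcripts absent from the worm, was 67.83. Ratios were taken on the log2 scale after 32 was added to each intensity, which understates differences of dim genes.

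**Figure D1:**
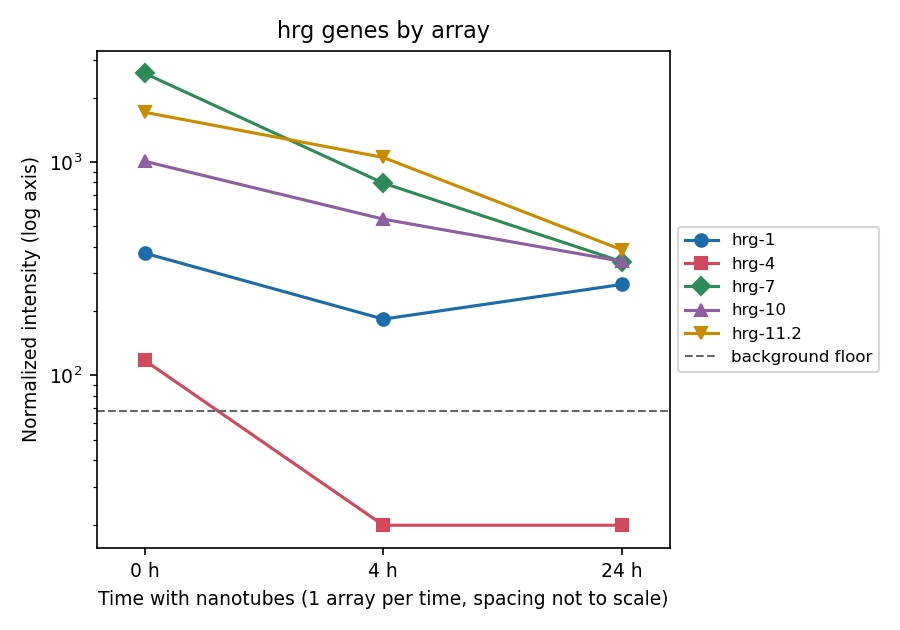
Normalized intensity (log axis) of 5 hrg genes at 0 h, 4 h and 24 h, 1 point per array, joined by a line per gene, with the background floor of 67.83 dashed. The hrg-7, hrg-10 and hrg-11.2 lines go down at both steps, hrg-1 is lowest at 4 h, and hrg-4 is under the floor at 4 h and 24 h; heights of different genes come from different probes and are not comparable.

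The importer genes hrg-1 and hrg-4 are relatives that encode membrane permeases. The intensity of hrg-1 was 373.4 at 0 h, 183.4 after 4 h and 266.5 after 24 h, all above the floor. At 4 h it was thus 49.1% of the 0 h intensity, just past 2-fold lower, and at 24 h it was 71.4%. The log2 ratios, taken after the addition to each intensity described above, were -0.91 at 4 h, just short of 2-fold, and -0.44 at 24 h. With only 1 added to each intensity, the 4 h log2 ratio of hrg-1 was -1.02, just past 2-fold. Between the exposed times, hrg-1 was higher at 24 h than at 4 h by 0.47 on the log2 scale. The spread of such ratios between 2 probe sets of 1 gene, over 1830 genes with more than 1 probe set, gave a technical SD of 0.24 for 4 h against 0 h, 0.47 for 24 h against 0 h and 0.29 for 24 h against 4 h. This SD comes from probe sets of the same arrays, so the spread between worms, cultures and hybridisations is not in it. The 24 h ratio of hrg-1 was within 1 such SD of 0, and its 4 h ratio was -3.76 such SDs.

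The hrg-4 probe set read 117.5 at 0 h, 19.86 after 4 h and 19.86 after 24 h. Only the 0 h value was above the floor, 1.73 times as high, and the exposed values are the same number, so the 2 have no order. Set against the floor, hrg-4 was at least 1.5-fold lower at 4 h than at 0 h and likewise at least 1.5-fold lower at 24 h. The mean of hrg-4 did not reach the filter on low values (a mean log2 value of 7.09 over the arrays, the median of all probe sets), so it stays out of the counts of genes past 2-fold. The other 4 genes passed.

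The gene hrg-7 encodes a secreted relative of aspartic proteases that carries a signal on heme supply from the intestine to neurons. Its intensity was 2596 at 0 h, 794.3 after 4 h and 340.5 after 24 h. At 4 h it was 3.18-fold lower than at 0 h (log2 ratio -1.67), and at 24 h it was 7.05-fold lower (log2 ratio -2.82). At 24 h it was also 2.22-fold lower than at 4 h (log2 ratio -1.15). Of the 4 genes that passed the filter, it had the lowest ratio to 0 h at both times. Among all 8634 genes measured, it ranked 66th from the lowest ratio at 4 h and 68th at 24 h.

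HRG-10 is, like HRG-9, a worm relative of the human protein TANGO2, and HRG-9 is known for moving heme out of compartments that store it. The intensity of hrg-10 was 1006 at 0 h, 538.8 after 4 h and 341.7 after 24 h. Its log2 ratio to 0 h was -0.86 at 4 h and -1.47 at 24 h, which is 1.82-fold and 2.78-fold lower. Between 4 h and 24 h it differed by -0.61, or 1.53-fold. On the log2 scale, 58.5% of its difference at 24 h was present at 4 h, against 59.2% for hrg-7 and 33.4% for hrg-11.2. With the arrays scaled on the spiked-in controls these shares were 50.7% for hrg-10, 56.1% for hrg-7 and 17.4% for hrg-11.2. Both differences in a share use the same 0 h array, so any error of that array is in both.

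For hrg-11.2 the intensity was 1706 at 0 h, 1048 after 4 h and 386.7 after 24 h. The 4 h value was 1.61-fold lower than at 0 h (log2 ratio -0.69), and the 24 h value was 4.15-fold lower (-2.05). Most of the difference therefore lay between 4 h and 24 h, where the log2 ratio was -1.37. In that comparison hrg-11.2 ranked 154th from the lowest of 8634 genes, before hrg-7 at 219th and hrg-10 at 736th, while hrg-1 ranked 7812th. In units of the technical SD, the 24 h ratios to 0 h were -6.03 for hrg-7, -4.39 for hrg-11.2 and -3.15 for hrg-10.

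**Figure D2:**
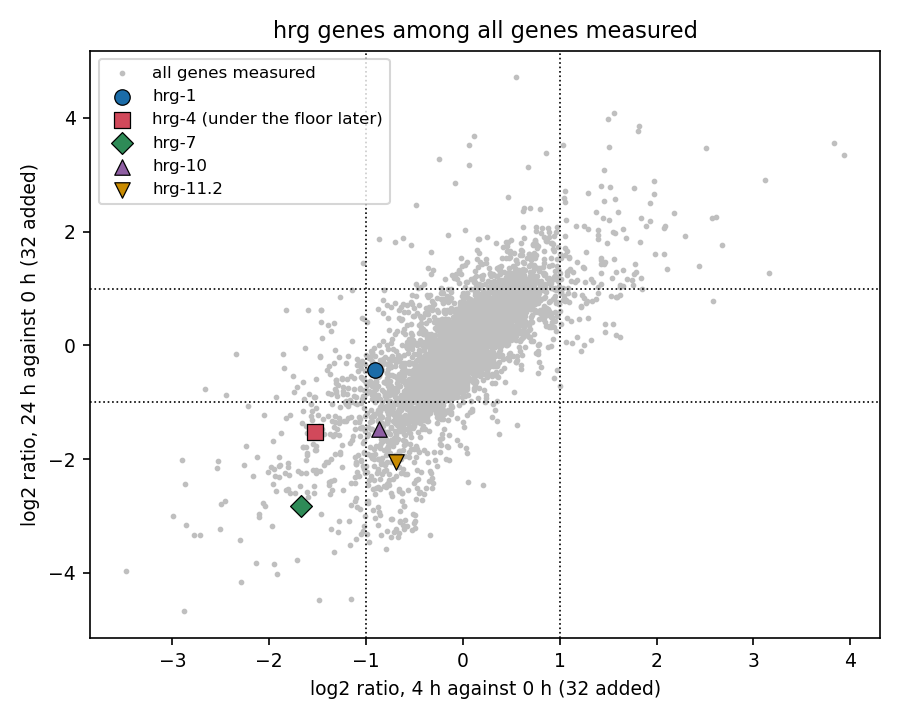
Log2 ratio at 4 h against 0 h (horizontal) and at 24 h against 0 h (vertical), 32 added to each intensity, for all 8634 genes measured (grey) and the hrg genes (coloured); dotted lines mark 2-fold. The hrg-7 point is past 2-fold on both axes, hrg-10 and hrg-11.2 on the vertical axis alone, and the hrg-4 point uses values under the floor, so that it gives no size; both axes share the 0 h array.

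Counted at 2-fold, 1 of the 4 genes past the filter was lower at 4 h than at 0 h, hrg-7, and 0 were higher. Over all 8634 genes, 3.25% were lower and 1.71% higher in that comparison. At 24 h against 0 h, 3 of the 4 were lower, namely hrg-7, hrg-10 and hrg-11.2, where 7.96% of all genes were lower and 5.32% higher. At 24 h against 4 h, 2 of the 4 were lower, hrg-7 and hrg-11.2, where 3.22% of all genes were lower and 2.28% higher. The median log2 ratio of the 4 genes was -0.89 for 4 h against 0 h, where that of all genes was 0.00. It was -1.76 for 24 h against 0 h, beside 0.00 for all genes. Since the genes were picked with these contrasts known, the counts describe them and are not evidence beyond that.

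These directions are relative to the other genes of an array. The 9 probe sets of the bacterial hybridisation controls bioB, bioC, bioD and cre, spiked in at fixed amounts, had a mean log2 ratio to 0 h of -0.45 (SD 0.14) after 4 h and of -0.66 (SD 0.31) after 24 h. With the arrays scaled on them, the median of all genes moved to 0.43 at 4 h and 0.61 at 24 h. Of all genes, 122 were then lower and 545 higher at 4 h, against 281 lower and 148 higher as deposited, and at 24 h 318 were lower and 1896 higher, against 687 and 459. The ratios of hrg-7 were then -1.23 at 4 h and -2.2 at 24 h, and those of hrg-11.2 were -0.25 and -1.43. The hrg-10 ratio at 24 h was -0.86, no longer past 2-fold, and its 4 h ratio was -0.43. The hrg-7 ratio of 24 h to 4 h was -0.97, just short of 2-fold. For hrg-1 the 4 h ratio was -0.52 and the 24 h ratio turned to 0.16, which is still below the median of all genes. Signal of the worm control transcripts was weaker near the 5′ end than near the 3′ end on every array, with ratios at 0 h from 0.03 (ubiquitin) to 0.38 (GAPDH). This ratio, a sign of RNA quality, was higher at 4 h and 24 h than in the 0 h array for 4 of 4 worm control transcripts. The median log2 difference was 0.32 after 4 h and 0.56 after 24 h, and the part of this in the hrg values was not tested.

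**Figure D3:**
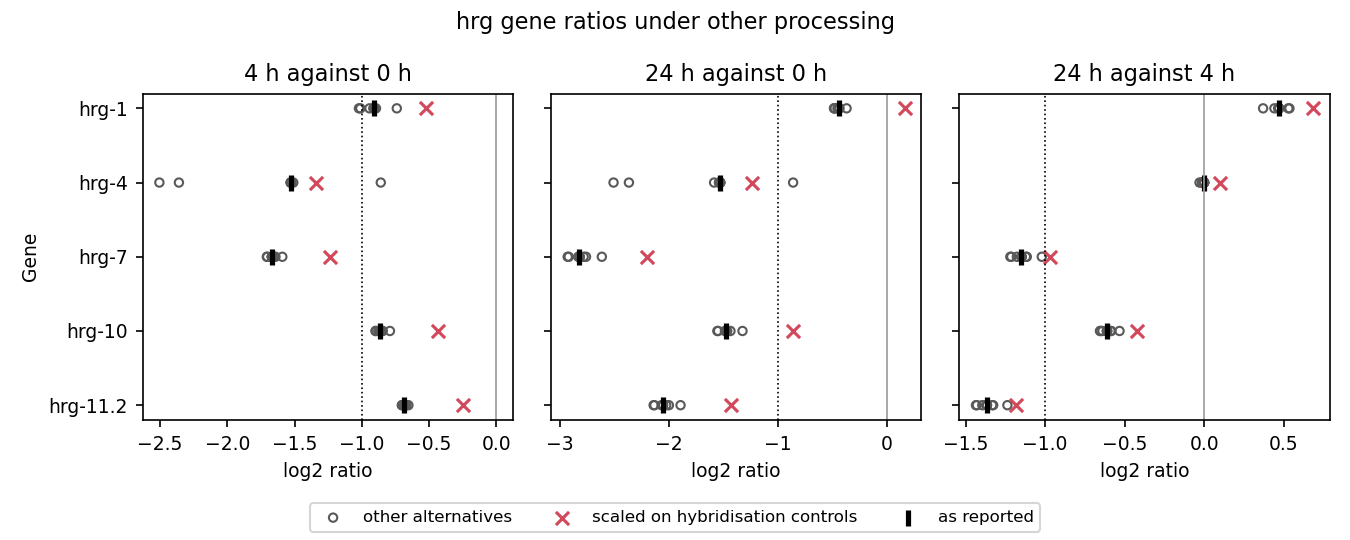
Log2 ratio of each hrg gene (rows) in each of the 3 comparisons between times, as reported (black bar), under the other processing alternatives (open circles) and with the arrays scaled on hybridisation controls (red cross). The dotted line is 2-fold lower. The hrg-7 and hrg-11.2 ratios at 24 h against 0 h stay left of it at every setting that measures them, from -2.93 to -2.2 and from -2.14 to -1.43. Without probe sets marked _x_ or _s_, hrg-11.2 is not measured. In that comparison hrg-1 crosses 0 with the control scaling, at 0.16.

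The other genes of heme handling that the array measured did not all have such low values. The gene mrp-5 encodes the ABC transporter that exports heme from the intestine to the rest of the body. Its brighter probe set read 1814 at 0 h, 1827 after 4 h and 2280 after 24 h, a log2 ratio of 0.01 at 4 h and 0.33 at 24 h. Its other probe set had ratios of 0.25 and 0.49. With the control scaling the brighter one was at 0.45 and 0.98, just short of 2-fold higher at 24 h. The median of all genes was then at 0.43 and 0.61. The gene hrg-3, for a secreted peptide that delivers heme to oocytes and other tissues, was under the floor on all 3 arrays, at 18.57, 14.56 and 16.92. So was hrg-9, with its probe sets between 41.69 and 67.18, and neither gene has a measured ratio. Of the 8 genes listed for this family, hrg-2, hrg-5, hrg-6, hrg-8 and hrg-11.1 had no probe set of 1 gene here.

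The remaining genes with an hrg name were taken up after their values had been seen. The gene hrg-11.3, a namesake of hrg-11.2, was at 2402 at 0 h, 1379 after 4 h and 963.1 after 24 h (log2 ratios to 0 h of -0.79 and -1.29). The hrg-11.4 values were 262.8, 225.3 and 138.8 (-0.20 and -0.79). All 3 hrg-11 genes on the array thus had their highest deposited value at 0 h and their lowest at 24 h, although with the control scaling hrg-11.4 turned higher at 4 h than at 0 h (log2 ratio 0.20). The probe sets of all 3 are of a kind that may match more than 1 transcript, and signal shared among them was not tested. At 24 h hrg-11.2 and hrg-11.3 were past 2-fold, and the control scaling put hrg-11.3 at -0.65. For hrg-14 the log2 ratios to 0 h were -0.29 at 4 h and -0.43 at 24 h. Both turned with the control scaling, to 0.13 and 0.18. These, like the 0.20 of hrg-11.4, were still below the median of all genes with that scaling, 0.43 at 4 h and 0.61 at 24 h. A probe set that hrg-14 shares with Y43D4A.3 and Y43D4A.4 had deposited ratios of 0.09 and 0.14. The probe sets of hrg-13 disagreed, with 0.11 at 4 h and -0.11 at 24 h for the brightest and 0.45 and 0.98 for the next. The control scaling put the brightest at 0.55 and 0.54.

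Proteins that use heme were covered by lists of cytochromes and heme-processing enzymes, peroxidases and catalases, globins, and soluble guanylate cyclases. Of 11 cytochrome and heme-processing genes measured, 1 was lower at 4 h and 2 were lower and 1 higher at 24 h. Their medians were 0.00 and -0.25. Over all genes, 3.25% were lower and 1.71% higher at 4 h, and 7.96% and 5.32% at 24 h. Counts in lists this short describe the named genes and not the list. The cytochrome c gene cyc-2.2 was at 310.2 at 4 h, against 734.3 at 0 h (log2 ratio -1.16), and at 24 h it was under the floor, at least 7.68-fold lower than at 0 h. The heme-binding membrane protein gene vem-1 was at 441.5 at 24 h, against 1027 at 0 h (-1.16). The cytochrome b5 gene cytb-5.2 was higher, at 6654 at 24 h, against 2424 at 0 h (1.44). The heme lyase gene cchl-1, whose product attaches heme to cytochrome c, had ratios of -0.12 and -0.62, and the other cytochrome c gene, cyc-2.1, had 0.23 and 0.51. With the control scaling 0 of the 11 were lower and 1 was higher at 4 h, cytb-5.2 (1.01), since cyc-2.2 was at -0.75. At 24 h 1 was then lower, cyc-2.2, and 2 were higher, cytb-5.2 (2.1) and cyc-2.1 (1.17), with vem-1 at -0.53. Many more of all genes were higher with that scaling, 545 at 4 h and 1896 at 24 h, against 148 and 459 as deposited.

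Of 5 peroxidase and catalase genes measured, 0 passed 2-fold at 4 h, and 1 was lower at 24 h, the peroxidase gene skpo-3. Its intensity was 209.1 at 24 h, against 709.5 at 0 h (log2 ratio -1.62). The shares of all genes were 3.25% lower and 1.71% higher at 4 h, and 7.96% and 5.32% at 24 h. The catalase gene ctl-2 had ratios of 0.95 at 4 h and 0.43 at 24 h. With the control scaling ctl-2 was past 2-fold higher at both times (1.39 and 1.08), and skpo-3 was still lower at 24 h (-1.03). Of 6 globin genes measured, 0 passed 2-fold in either comparison with 0 h, and their ratios ran from -0.48 to 0.12 at 4 h and from -0.42 to 1.00 at 24 h, where glb-11 was just short of 2-fold. At 24 h 1 globin gene was higher with background subtraction or a pseudocount of 1, and 2 were with the control scaling, glb-11 (1.60) and glb-18 (1.08). That scaling put 545 of all genes higher at 4 h and 1896 at 24 h, against 148 and 459 as deposited. None of the 7 soluble guanylate cyclase genes, which sense gases through heme, passed the filter, and all 7 were under the floor on every array.

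**Figure D4:**
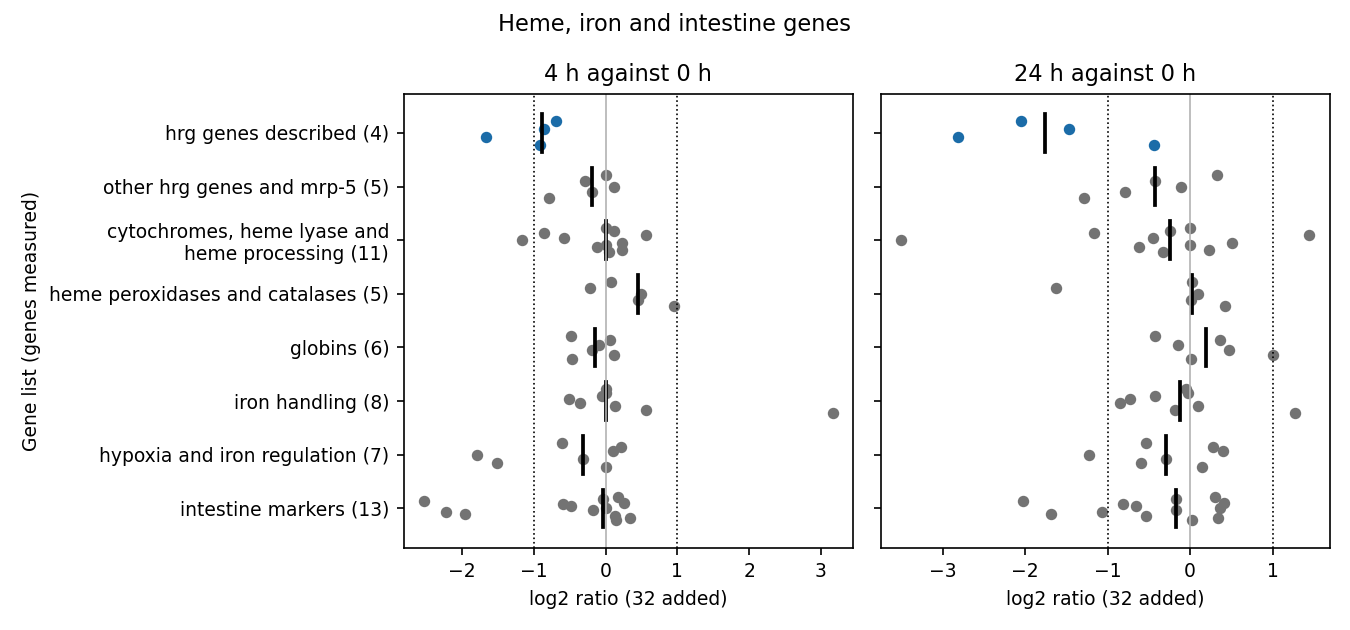
Log2 ratios (32 added) at 4 h and at 24 h against 0 h of the genes past the filter in each list, 1 point per gene, with the list's median as a black bar and 2-fold as dotted lines; the number measured is in brackets. The hrg genes have medians of -0.89 and -1.76, and the ferritin gene ftn-1 stands at 3.16 and 1.27 in the iron list.

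Iron and heme are linked because heme breakdown frees iron. Among all genes, 3.25% were lower and 1.71% higher at 4 h, and 7.96% and 5.32% at 24 h. Of 8 iron-handling genes measured, 1 was higher and 0 lower at both exposed times, the ferritin gene ftn-1 for iron storage. It was at 4900 at 4 h and 1300.0 at 24 h, against 518.7 at 0 h. The other ferritin gene, ftn-2, had log2 ratios of 0.56 and -0.19, and the iron exporter gene fpn-1.1 had -0.35 and -0.85. The control scaling also put ftn-2 past 2-fold higher at 4 h (1.01). Of 7 hypoxia and iron regulation genes, 2 were lower at 4 h. They were cysl-2, an enzyme gene of sulfide metabolism (-1.79), and rhy-1, a regulator of the hypoxia factor HIF-1 (-1.52). At 24 h cysl-2 alone was past 2-fold (-1.22), and rhy-1 had a ratio of -0.60. With the control scaling the same 2 genes were lower at 4 h, and at 24 h 0 were lower and 1 was higher, aha-1 (1.03), with cysl-2 at -0.60 and rhy-1 at 0.04. Higher genes on the whole array then numbered 545 at 4 h and 1896 at 24 h, against 148 and 459 as deposited.

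Uptake and signalling of heme are functions of the intestine, so the intestine's markers were read beside the hrg genes. Over all genes, 3.25% were lower and 1.71% higher at 4 h, and 7.96% and 5.32% at 24 h. The 13 marker genes measured had medians of -0.04 and -0.17. Of these markers, 3 were lower and 0 higher at 4 h, and 3 were lower and 0 higher at 24 h. The lower ones at both times were the acid phosphatase gene pho-1 (at least 5.73-fold lower at 4 h, and -2.03 on the log2 scale at 24 h), the peptide transporter gene pept-1 (-2.22 and -1.07) and the gut actin gene act-5 (-1.96 and -1.69). Of the 13, 2 were lower at 24 h with the control scaling, with pept-1 at -0.44, and 2 were higher, ifb-2 (1.01) and asp-1 (1.08). Among all genes 318 were then lower and 1896 higher at 24 h, against 687 and 459 as deposited. The gut fate factor gene elt-2 had ratios of 0.14 and 0.02. The summed intensity of the list was 25344 at 0 h, 22338 after 4 h and 23701 after 24 h, and 13, 12 and 13 of the markers were above the floor. The part of the intestine's share of RNA in the hrg values was not tested.

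The genes with the most similar course to each hrg gene were sought by the distance between their ratios to 0 h at 4 h and at 24 h, 2 numbers from 3 arrays. For hrg-7 the nearest were C05D12.3 (distance 0.07), rol-1 (0.17) and the UDP-glycosyltransferase gene ugt-25 (0.23), and 4 genes above the floor on all arrays lay within 0.25 of it. For hrg-10 they were lbp-6, for a lipid binding protein (0.03), ech-7 (0.05) and H18N23.2 (0.06), with 64 such genes within 0.25. For hrg-11.2 they were gtnt-40, whose 24 h intensity of 62.18 is under the floor so that its distance is not measured, C05D2.8 (0.06, with a ratio of -0.42 at 24 h in its other probe set) and C04F12.7 (0.07), with 26 such genes, and for hrg-1 they were srv-1 (0.01), nspb-11 (0.01) and R102.4 (0.05), with 55 such genes. The 24 h intensities of ugt-25 (73.45) and C04F12.7 (69.89) were just above the floor of 67.83, so their distances are rough. At its steeper ratios hrg-7 thus had fewer genes near it. No such genes are given for hrg-4, whose later values are under the floor.

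The gene table places hrg-4 on chromosome IV between its relatives hrg-5 and hrg-6, which had no probe set of 1 gene here. On chromosome V, hrg-7 overlaps C15C8.7, which had log2 ratios to 0 h of -0.02 at 4 h and -0.06 at 24 h, and it is followed by C15C8.4, with -0.39 and -0.76. On chromosome X, hrg-11.2 lies between rgl-1, with ratios of -0.05 and 0.00, and irg-7, with -0.37 and -0.89. None of these measured neighbours was past 2-fold. The gene hrg-1 overlaps mop-25.1, whose signal did not pass the filter, and neither did the genes beside hrg-1 and hrg-10. The probe sets of hrg-1 and hrg-11.2, like those of hrg-11.3 and hrg-11.4, are of a kind that the manufacturer marks as matching more than 1 transcript. Signal from other transcripts may therefore be part of their values.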

How the data were processed

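Total RNA of 3 samples was measured on 3 arrays. The authors deposited 1 linear, normalized intensity per probe set and array, between 9.08 and 31806. The submitters' processing notes name Affymetrix Expression Console 1.1, RMA and MAS5, and what each did is not given in the sources used here. Medians of the arrays lay between 100.2 and 102.8, and 27.8% of probe sets were identical at 4 h and 0 h.

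Of 22625 probe sets, 77 are controls and 20766 have 1 gene, of which 20701 were matched by gene ID to the WBcel235 table, used for names and neighbours without coordinates. The log2 of each intensity plus 32 was taken. Probe sets with a mean at or above the median (7.09) were kept, each gene by its brightest one, giving 8634 genes. The floor was taken over 8 control probe sets. Ratios with 1 value under it are bounds, against the floor with 32 added to both.

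With 1 array per group no test exists, and a 2-fold threshold describes 3 comparisons. The members and lists were chosen with earlier results of these data known. Named were all members, the measured genes of their family, up to 4 genes per list past 2-fold and the 3 genes nearest each member. The hrg-13, hrg-14, hrg-11.3 and hrg-11.4 genes, chromosome neighbours, genes under 2-fold from the lists and intestine markers were added after the values were seen. For markers of neurons, epidermis, body wall muscle and germline, the medians at 4 h and 24 h against 0 h were 0.17 and 0.63, 0.02 and -0.06, -0.12 and -0.12, and -0.01 and -0.40. Alternatives were other thresholds, normalizations, pseudocounts, filters and choices of probe set. Scripts were tested on simulated data. Python 3.11.15, numpy 2.4.6, pandas 2.3.3, statsmodels 0.14.6 and matplotlib 3.10.9 were used.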

Additional observations from a re-analysis of the deposited data

How the results depend on the processing

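Under 14 alternatives no hrg gene past 2-fold changed direction. The count of hrg genes lower at 4 h than at 0 h, 1 as reported, was 4 with a threshold of 1.5-fold, 2 with background subtraction (1st percentile, 16 added), 2 with a pseudocount of 1, and 2 without a filter. The lower threshold brought in hrg-1, hrg-10 and hrg-11.2, the next 2 settings hrg-1 and the last hrg-4. The share of all genes lower at 4 h, 3.25% as reported, rose too with the lower threshold, background subtraction and a pseudocount of 1. The count at 24 h against 4 h, 2 as reported, was 0 with a threshold of 3-fold, 1 with scaling on hybridisation controls and 1 without probe sets marked _x_ or _s_, which removes hrg-1 and hrg-11.2. The share of all genes lower in that comparison, 3.22% as reported, was smaller with the 3-fold threshold and with the control scaling. The count at 24 h against 0 h, 3 as reported, stayed between 2 and 4. The genes counted differ: 4 with the filter as reported, 5 without a filter, and hrg-7 and hrg-10 alone without _x_ or _s_ probe sets. The ratio of hrg-4, whose later values are under the floor, ran from -2.51 with a pseudocount of 1 to -0.86 with 100. Quantile normalization, median centring, a loess trend (span 0.3), a filter at the 75th percentile, and the mean or dimmest probe set kept each count of hrg genes within 1.5 times. No replicate could be left out. No paired analysis was possible because each group has 1 array. Dim signal limits hrg-4, hrg-3 and hrg-9, which lie at or under the floor on most arrays.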
